A study of Homo sapiens with 36 samples.

Results

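The miR-200 family 5p arms are 4 mature miRNAs: hsa-miR-200a-5p and hsa-miR-200b-5p from the cluster on chromosome 1, and hsa-miR-200c-5p and hsa-miR-141-5p from the cluster on chromosome 12. They were found by name, as 4 of the 509 miRNA names listed in any of 7 tables. All 4 were listed in each of the 4 tables of HCT116-derived lines. Among the 3 tables of RPE1-derived lines, RPE1* 21/3 listed only hsa-miR-200a-5p, and neither RPE1 5/3 12/3 nor RPE1* 7/3 listed any of the 4.

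Small RNA was sequenced from 36 libraries in 12 groups of 3, and each table set 1 aneuploid line against its control. HCT116 is a near-diploid colon carcinoma line, RPE1 is an hTERT-immortalised line from retinal pigment epithelium, and an asterisk marks cells that carry the fluorescent histone H2B-GFP. HCT116 5/4 held 4 copies of chromosome 5 and was set against HCT116. HCT116 18/3 c2, HCT116* 3/3 c11 and HCT116* 8/3 c7 held 3 copies of chromosomes 18, 3 and 8, and all 3 were set against the same HCT116* libraries, although HCT116 18/3 c2 itself carries no H2B-GFP. RPE1 5/3 12/3 held 3 copies of chromosomes 5 and 12 and was set against RPE1. RPE1* 7/3 held 3 copies of chromosome 7 and was set against the RPE1* libraries numbered 11 to 13. RPE1* 21/3 held 3 copies of chromosome 21 and was set against the RPE1* libraries numbered 1 to 3. In the description of the lines, chromosome 12 of RPE1 5/3 12/3 is a spontaneous gain, RPE1* 7/3 carries spontaneous gains of chromosomes 9 and 12 as well, and c with a number names a single clone. No HCT116-derived line was labelled with a gain of chromosome 1 or 12. The study's methods call the 3 libraries of a group biological replicates.

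A miRNA hairpin is cut into a duplex, whose strands are named after the 5p and 3p ends, and either strand can be loaded into Argonaute to repress mRNAs that pair with its seed. The miR-200 family is known as a mark of epithelial cells. Its 3p arms, the usual guide strands, repress ZEB1 and ZEB2, transcription factors that in turn silence E-cadherin and both miR-200 clusters. The 5p arms come from the same hairpins and are usually the scarcer strands, so they report on the same transcripts with other seeds. The tables listed none of hsa-miR-200a-3p, hsa-miR-200b-3p, hsa-miR-200c-3p, hsa-miR-141-3p and hsa-miR-429, the 5 remaining products of the family, and these were not analysed here. The gap is not particular to the family, since only 12 of the 509 names end in 3p, against 333 that end in 5p and 164 that name no arm, and ranks and levels below are relative to such lists.

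The mature sequences show what was counted and how the members are told apart. RefSeq sequences matched 3 of the 4 members by name, and hsa-miR-141-5p was not matched. Capitals mark the seed, bases 2 to 8 from the 5′ end.
hsa-miR-200a-5p: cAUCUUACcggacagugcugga
hsa-miR-200b-5p: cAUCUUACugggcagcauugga
hsa-miR-200c-5p: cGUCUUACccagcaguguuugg
The pair from chromosome 1 shared the seed AUCUUAC, whereas hsa-miR-200c-5p had GUCUUAC, which differs from it by A2G, counted from the 5′ end. Outside the seed, hsa-miR-200a-5p and hsa-miR-200b-5p differed at 5 of 22 positions (C9U, A12G, U16C, G17A and C18U). The 3 sequences are thus distinct over their full length. One hairpin of each cluster shows where the measured arm lies, with the 5p arm in capitals.
MIR200B: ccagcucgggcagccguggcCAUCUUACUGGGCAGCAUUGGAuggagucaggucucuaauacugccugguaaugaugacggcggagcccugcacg
MIR200C: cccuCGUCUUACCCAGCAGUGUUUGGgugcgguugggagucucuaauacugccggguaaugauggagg
In MIR200B the 5p arm filled bases 21 to 42 and the 3p arm bases 57 to 78. In MIR200C the corresponding stretches were bases 5 to 26 and 44 to 66.

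On GRCh37, the build of the study (hg19), GENCODE placed MIR200B at chr1:1102484-1102578 and MIR200A at chr1:1103243-1103332, both on the plus strand, with 664 bases between them. No other annotated gene covered either hairpin. MIR429, the last hairpin of that cluster, lay 1052 bases further on. MIR200C stood at chr12:7072862-7072929 and MIR141 at chr12:7073260-7073354, with 330 bases between them. Both chromosome 12 hairpins were on the plus strand in an intron of MIR200CHG, a long non-coding RNA gene at chr12:7072389-7073610. Members of 1 cluster are known to be cut from a shared transcript, so they are not replicates of each other.

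The 5p arms were abundant to moderate in HCT116 cells and at or under the reach of the tables in RPE1 cells. Levels are the mean normalised count over the 6 libraries of a table, scaled to parts per 1000000 (ppm) of that table's summed means, which ranged from 5556870 to 11221232. Since the tables were normalised separately, levels across tables are a description with no test. hsa-miR-200a-5p stood at 1138 ppm in the HCT116 5/4 table, 2544 in HCT116 18/3 c2, 2502 in HCT116* 3/3 c11 and 2477 in HCT116* 8/3 c7. It ranked between 18 and 31 among the listed miRNAs of these tables. It was the leading member by far, with 89.6% to 93.2% of the summed level of the 4 arms.

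hsa-miR-141-5p came second, at 64.5 ppm in the HCT116 5/4 table, 128 in HCT116 18/3 c2, 98.3 in HCT116* 3/3 c11 and 123 in HCT116* 8/3 c7. hsa-miR-200b-5p stood at 54.6, 56.4, 72.2 and 67.1 ppm in the same order. hsa-miR-200c-5p was the scarcest, at 12.7, 18.2, 12.6 and 17.0 ppm. The order of the 4 levels was the same in all 4 HCT116 tables, although hsa-miR-141-5p and hsa-miR-200b-5p lay close together in the HCT116 5/4 table. In normalised counts, arms cut from neighbouring hairpins were far from equal: hsa-miR-200a-5p exceeded hsa-miR-200b-5p by 20.8 to 45.1 times, and hsa-miR-141-5p exceeded hsa-miR-200c-5p by 5.09 to 7.80 times. Whether the libraries captured these arms equally well was not tested.

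In RPE1 cells, hsa-miR-200a-5p had a mean of 4.70 normalised counts in the RPE1* 21/3 table, or 0.584 ppm, which was place 272 of 273. The median over the 4 HCT116 tables, 2490 ppm, was 4264 times that level. No other of the 211 miRNAs listed in all 4 HCT116 tables and in RPE1* 21/3 had a larger ratio. The other members were in no RPE1 table, and no level can be given for them. Of the 271 miRNAs listed in all 4 HCT116 tables, 20 (7.38%) were in no RPE1 table. Ordered by their median level in the HCT116 tables, hsa-miR-141-5p was place 2 of these 20, hsa-miR-200b-5p place 3 and hsa-miR-200c-5p place 5. The lowest mean listed in the RPE1 tables was 4.58 normalised counts in RPE1 5/3 12/3, 1.10 in RPE1* 7/3 and 4.67 in RPE1* 21/3, and whether an unlisted member had no reads or was removed by a filter cannot be told apart.

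**Figure D1:**
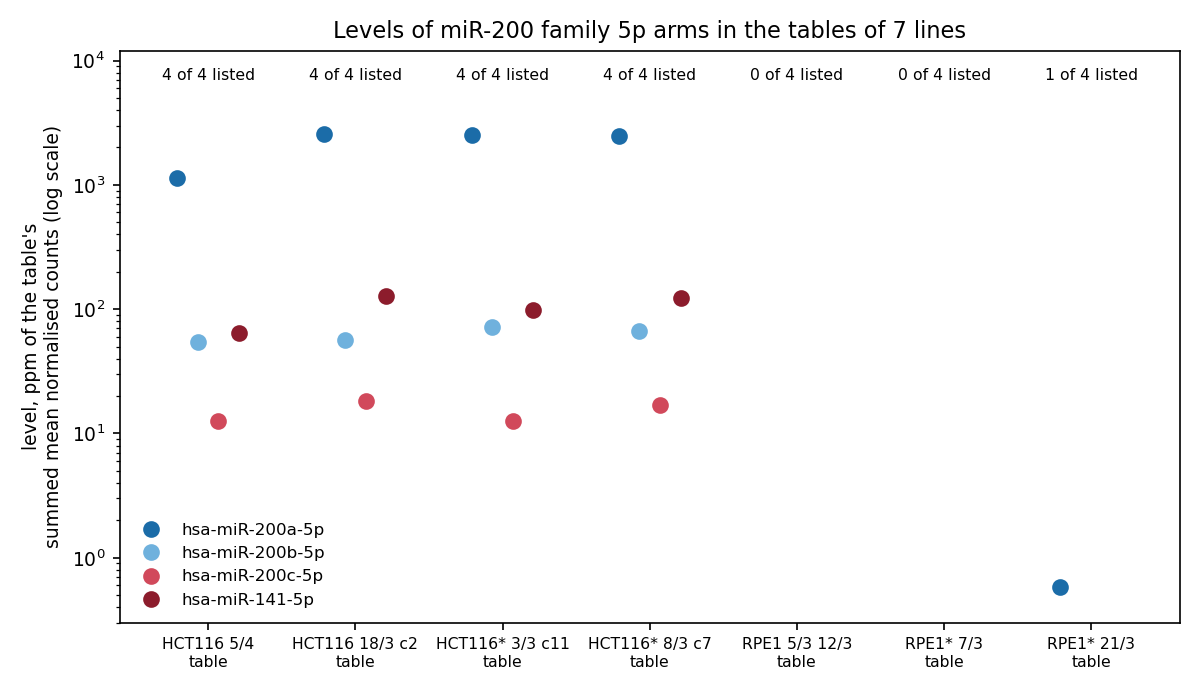
Levels in ppm of each table's summed means (log scale) for the 4 miR-200 family 5p arms, 1 point per member and table, with the number of members listed above each table. In the 4 HCT116 tables hsa-miR-200a-5p lies between 1138 and 2544 and the other members between 12.6 and 128, whereas the only RPE1 point is hsa-miR-200a-5p at 0.584.

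The tables hold no values of single libraries, so the level of each group was worked out from a table's mean and fold change and expressed in ppm of the summed levels of that group. The HCT116* control came out of 3 separate tables, which gave 2554 to 2557 ppm for hsa-miR-200a-5p, 67.7 to 68.6 for hsa-miR-200b-5p, 16.3 to 16.8 for hsa-miR-200c-5p and 120 to 122 for hsa-miR-141-5p. These 3 readings of the same libraries differed by at most 1.03 times. HCT116, the control of HCT116 5/4, had 1571 ppm of hsa-miR-200a-5p, 72.2 of hsa-miR-200b-5p, 25.2 of hsa-miR-200c-5p and 128 of hsa-miR-141-5p. Side by side, and with no test, HCT116* held 1.63 times the hsa-miR-200a-5p level of HCT116 and 0.662 times its hsa-miR-200c-5p level, while the ratios for hsa-miR-200b-5p and hsa-miR-141-5p were 0.941 and 0.949. HCT116 came out of 1 table only, so its levels have no such second reading. The fit behind that table held a replicate term, used by the study against sequencing batch effects, and those behind the HCT116* levels did not. The study's list of cell lines also gives different sources for HCT116 and HCT116*. Cell stock, H2B-GFP, sequencing batch and fit thus cannot be told apart in these ratios.

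For the HCT116-derived lines and RPE1* 21/3, the comparison with the control asked whether a gain of chromosomes that do not carry these hairpins went along with a change of the 5p arms. A member was called where its mean was at least 10, the adjusted p of DESeq2 listed in the deposited table was under 0.05, and the log2 fold change of line over control was at least 0.6 in size. In HCT116 5/4, both arms from chromosome 12 fell and neither arm from chromosome 1 was called. In HCT116* 3/3 c11, hsa-miR-200c-5p alone was called, and it was lower. In HCT116 18/3 c2 and HCT116* 8/3 c7 no member was called.

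In HCT116 5/4, hsa-miR-141-5p had 554 normalised counts in the control and 163 in the line. Its log2 fold change was -1.77 ± 0.20 (SE, 3 libraries against 3), a 3.41-fold fall, with an adjusted p of 3.88e-18 from DESeq2. hsa-miR-200c-5p, cut from the same transcript, had 109 normalised counts in the control and 31.9 in the line. Its log2 fold change was -1.77 ± 0.30, with an adjusted p of 4.11e-08 from DESeq2. The changes of these neighbours differed by 0.00 on the log2 scale (95% interval -0.70 to 0.70). Among the 249 miRNAs tested in that line, 5 had a lower fold change than hsa-miR-200c-5p and 6 a lower one than hsa-miR-141-5p. With a t distribution of 3 degrees of freedom in place of the normal one, the adjusted p from the DESeq2 estimates were 0.0784 for hsa-miR-141-5p and 0.127 for hsa-miR-200c-5p, and none of the 69 calls of this line held. A replicate term of 3 levels leaves fewer degrees of freedom than that, so these p-values are, if anything, too small. In bulk RNA, fewer cells with these miRNAs and less of them per cell cannot be told apart.

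hsa-miR-200a-5p had 6789 normalised counts in HCT116 and 5857 in HCT116 5/4, a log2 fold change of -0.21 ± 0.15 (adjusted p = 0.345, DESeq2). For hsa-miR-200b-5p the levels were 312 and 295, a log2 fold change of -0.08 ± 0.20 (adjusted p = 0.837, DESeq2). The clusters differed from each other in this line. The log2 fold change of hsa-miR-141-5p lay below that of hsa-miR-200a-5p (difference -1.55, 95% interval -2.04 to -1.07), and that of hsa-miR-200c-5p lay below that of hsa-miR-200b-5p by a similar amount (difference -1.69, interval -2.39 to -0.99). These intervals treat the errors of both miRNAs as independent. Of the 4 members, 2 were called lower, against 9.24% of all tested miRNAs called lower and 27.7% called in either direction.

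The summed level of all miRNAs, worked out from the listed fold changes, was higher in the line than in the control by 0.65 on the log2 scale. On that basis, a member's share of all miRNAs fell further than its DESeq2 fold change. A large part of the sum is hsa-miR-100-5p, at 223644 ppm, whose own log2 fold change was 0.76 ± 0.69. In ppm of each group, hsa-miR-200a-5p stood at 1571 in HCT116 and 862 in HCT116 5/4, hsa-miR-200b-5p at 72.2 and 43.4, hsa-miR-200c-5p at 25.2 and 4.70, and hsa-miR-141-5p at 128 and 24.0. Scaled in this way, a choice made after the data were seen, all 4 members would be called lower. That count takes the 0.65 as free of error. The difference between the clusters is untouched by the scale. The order of levels also differed, as hsa-miR-141-5p stood at 1.78 times hsa-miR-200b-5p in HCT116 and at 0.552 times in HCT116 5/4.

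**Figure D2:**
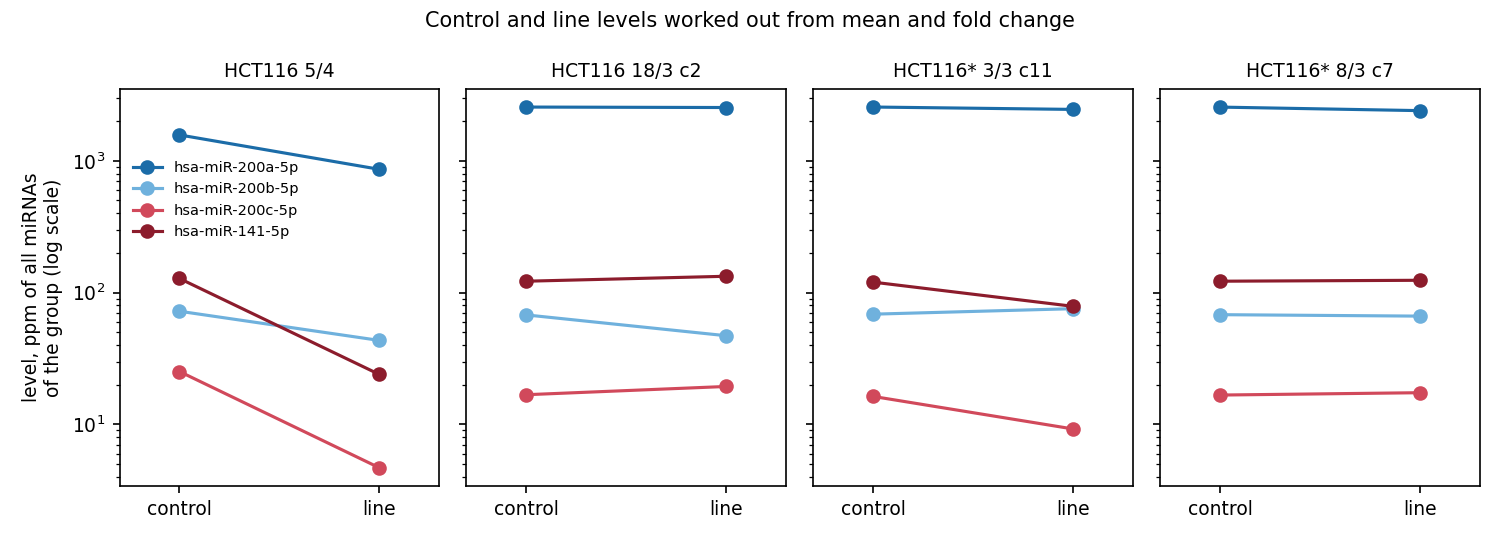
Levels of the 4 members in control and line, in ppm of the summed worked-out levels of the group (log scale), 1 panel per HCT116-derived line, with each value worked out from a table's mean and fold change. In HCT116 5/4 the chromosome 12 arms drop from 128 to 24.0 (hsa-miR-141-5p) and from 25.2 to 4.70 (hsa-miR-200c-5p), and on this scale the chromosome 1 arms lie further below the control than in the DESeq2 fold changes (-0.21 and -0.08 on the log2 scale), while hsa-miR-200a-5p of HCT116 18/3 c2, higher by DESeq2, does not exceed its control here (2556 and 2535).

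In HCT116* 3/3 c11, hsa-miR-200c-5p had 139 normalised counts in the control and 86.3 in the line, a log2 fold change of -0.69 ± 0.24 (adjusted p = 0.0333, DESeq2). This call was close to both limits, and it was lost with a t distribution (adjusted p = 0.325 from the DESeq2 estimates) and in a test against a log2 fold change of 0.6. hsa-miR-141-5p, with 1023 and 735 normalised counts, had a log2 fold change of -0.48 ± 0.24 that did not pass the test (adjusted p = 0.158, DESeq2). For the chromosome 1 arms, the log2 fold change was 0.07 ± 0.16 for hsa-miR-200a-5p and 0.27 ± 0.21 for hsa-miR-200b-5p, with adjusted p of 0.822 and 0.380 from DESeq2. hsa-miR-200c-5p lay below hsa-miR-200b-5p (difference -0.95, interval -1.58 to -0.33), whereas the interval for hsa-miR-141-5p against hsa-miR-200a-5p reached past 0 (difference -0.54, interval -1.11 to 0.02). One of 4 members was called lower, against 3.58% of the 279 tested miRNAs called lower and 9.68% called in either direction.

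In HCT116 18/3 c2, 3 members were higher than the control by DESeq2, yet short of the fold limit. hsa-miR-141-5p went from 877 to 1156 normalised counts (log2 fold change 0.40 ± 0.10, adjusted p = 6.49e-04, DESeq2). hsa-miR-200c-5p went from 121 to 169 (0.48 ± 0.17, adjusted p = 0.0214, DESeq2) and hsa-miR-200a-5p from 18386 to 22088 (0.26 ± 0.10, adjusted p = 0.0249, DESeq2). hsa-miR-200b-5p stood at 487 and 411 normalised counts, with a log2 fold change of -0.25 ± 0.15 (adjusted p = 0.244, DESeq2). Within the chromosome 1 cluster, the fold change of hsa-miR-200a-5p exceeded that of hsa-miR-200b-5p by 0.51 (interval 0.17 to 0.86). Without the fold limit, 3 of 4 members passed as higher, against 19.3% of the 280 tested miRNAs, and with it none did, against 18.2% called in either direction. The summed level of all miRNAs, worked out and taken as free of error as for HCT116 5/4, was higher in the line by 0.28. On that scale hsa-miR-200a-5p was at -0.01, hsa-miR-200c-5p at 0.21 and hsa-miR-141-5p at 0.12, none past an adjusted p of 0.05 from the DESeq2 estimates. hsa-miR-200b-5p was at -0.52 with an adjusted p of 0.00208 from the same estimates, short of the fold limit. With a t distribution the adjusted p from the DESeq2 estimates were 0.130 for hsa-miR-141-5p, 0.216 for hsa-miR-200c-5p and 0.224 for hsa-miR-200a-5p, and none of the 51 calls of this line held. The line was made in HCT116 and not in HCT116*, so its control is not its parent, and it lacks the H2B-GFP of that control. The part of these differences in the result was not tested.

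HCT116* 8/3 c7 showed the smallest changes. The log2 fold changes were -0.07 ± 0.07 for hsa-miR-200a-5p, -0.02 ± 0.13 for hsa-miR-200b-5p, 0.08 ± 0.17 for hsa-miR-200c-5p and 0.04 ± 0.09 for hsa-miR-141-5p. No adjusted p of DESeq2 was under 0.682. The 95% intervals held all 4 changes within -0.26 and 0.42, while 15.0% of the 293 tested miRNAs of this line were called. In RPE1* 21/3, hsa-miR-200a-5p had a log2 fold change of -0.19 ± 0.38 and fell short of the minimum mean. This SE is 0.703 times the one that counting alone gives at such a level, so it is smaller than the error of a fold change taken straight from the counts.

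**Figure D3:**
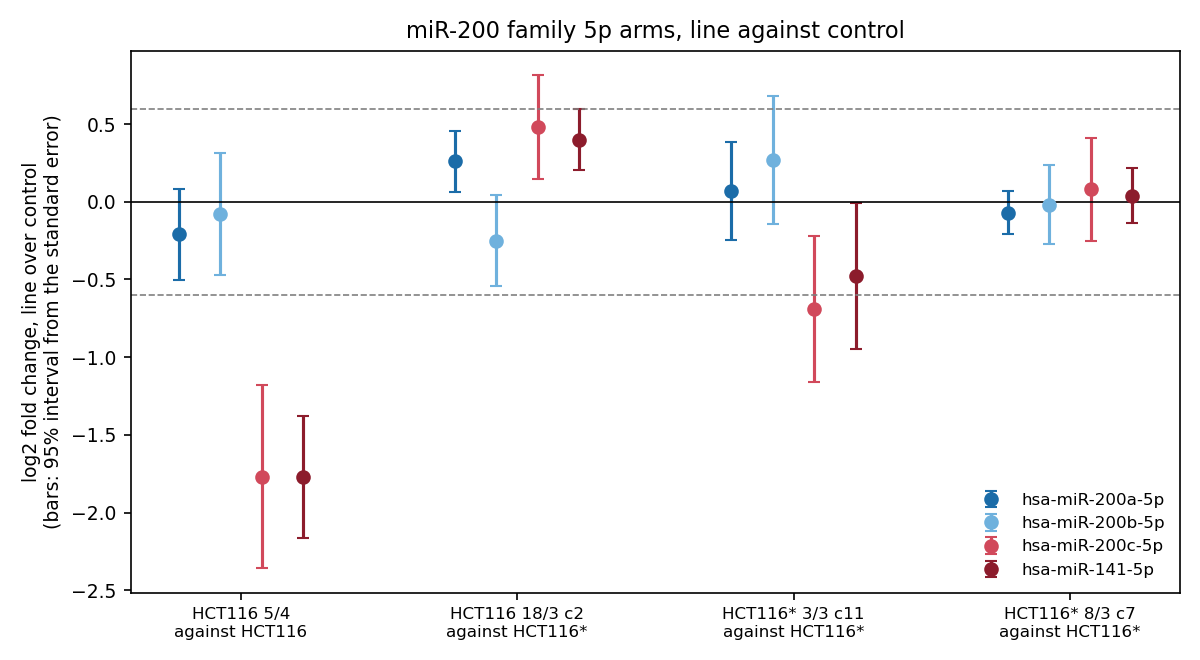
Log2 fold change of line over control for the 4 members in the 4 HCT116-derived lines, as points with 95% intervals from the listed SE; dashed lines mark the fold limit of 0.6 on both sides of 0. Both chromosome 12 arms stand at -1.77 in HCT116 5/4, hsa-miR-200c-5p at -0.69 in HCT116* 3/3 c11, and all members lie between -0.07 and 0.08 in HCT116* 8/3 c7.

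The fall of the chromosome 12 arms in HCT116 5/4 was compared with each of the other HCT116-derived lines, which share no library with it. For hsa-miR-141-5p, the log2 fold change was lower in HCT116 5/4 than in HCT116 18/3 c2 (difference -2.17, 95% interval -2.60 to -1.74), than in HCT116* 8/3 c7 (-1.81, -2.23 to -1.39) and than in HCT116* 3/3 c11 (-1.29, -1.89 to -0.69). The same differences for hsa-miR-200c-5p were -2.25 (-2.93 to -1.58), -1.85 (-2.53 to -1.18) and -1.08 (-1.83 to -0.33). All 6 passed a Wald test on the DESeq2 estimates adjusted over 12 differences. For hsa-miR-200a-5p, 1 of 3 differences passed, that with HCT116 18/3 c2 (-0.48, -0.82 to -0.13). None of the 3 passed for hsa-miR-200b-5p, whose differences ranged from -0.35 to 0.16. HCT116 5/4 and the other 3 lines were set against different controls, so the line and its control both enter these differences. Among these lines, only the fit of HCT116 5/4 held a replicate term, which the study used against sequencing batch effects. The Wald test takes the normal distribution, and with a t distribution none of the 69 calls of HCT116 5/4 held. The same differences were not worked out for the other miRNAs, so no share over all of them stands beside these counts.

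**Figure D4:**
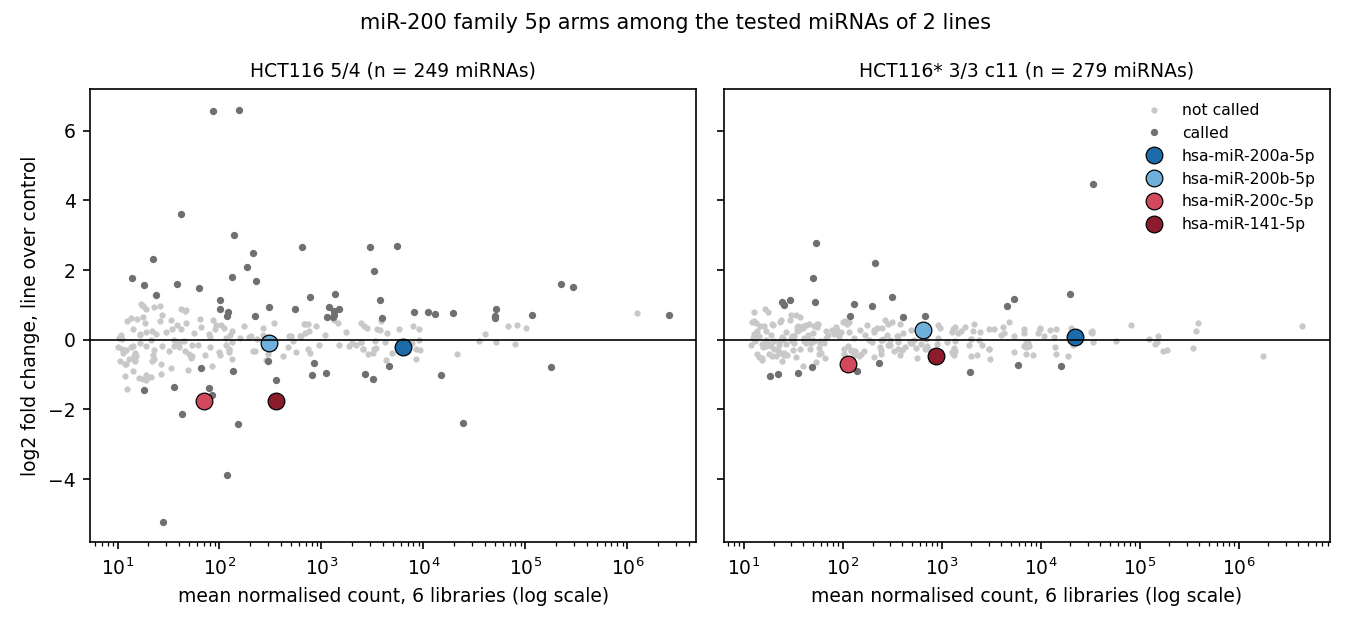
Mean normalised count over 6 libraries (log scale) against the log2 fold change of line over control for all tested miRNAs of HCT116 5/4 and HCT116* 3/3 c11, with called miRNAs in dark grey and the 4 members in colour. In HCT116 5/4 the 2 chromosome 12 arms lie near the lower edge, with 5 and 6 of 249 miRNAs below them, and the chromosome 1 arms lie in the main cloud.

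The gain of chromosome 12, which carries MIR200C and MIR141, brought neither arm into the tables of RPE1 5/3 12/3 and RPE1* 7/3. The other miRNAs of the chromosome set the frame. GENCODE hairpins could be matched by symbol for 433 of the 509 names (85.1%), and 17 lay on chromosome 12 only. In RPE1 5/3 12/3, 7 of them reached a mean of 10, of which 3 were called higher and 1 lower, against 16.9% and 13.5% of the 237 tested miRNAs, with a median log2 fold change of 0.95 against 0.07 for all tested miRNAs. In RPE1* 7/3, 7 reached a mean of 10 and none was called, against 7.29% called higher and 5.67% called lower among the 247 tested, with a median of -0.13 against -0.04. Among the matched names, the nearest miRNA on chromosome 12 was hsa-miR-1293, which lies 43.6 Mb beyond MIR141, and none lay on the other side of MIR200C. The log2 fold change of hsa-miR-1293 was 0.66 ± 0.57 in RPE1 5/3 12/3 and -0.02 ± 0.27 in RPE1* 7/3. Of the HCT116-derived lines, it was called in HCT116 5/4 only, as higher (1.77 ± 0.59, adjusted p = 0.0134, DESeq2), at a mean of 14.0 normalised counts.

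Other miRNAs that mark cell types placed the tables only in part as their labels do. hsa-miR-204-5p, a miRNA of pigment epithelium, stood between 380 and 1450 ppm in the RPE1 tables and at 4.50 or less in the HCT116 tables. Of 7 further epithelial and gut miRNAs, 3 or 4 were listed per table, with hsa-miR-192-5p highest in each and hsa-miR-194-5p next in all but 1, and summed levels of 304 to 754 ppm in HCT116 and 192 to 251 in RPE1. hsa-miR-203a, hsa-miR-375 and hsa-miR-429 were listed in none. These are 3p products named without an arm, and other names without an arm were listed. Whether the 3 were absent from the cells or left out of the tables cannot be told apart. The 10 miRNAs of mesenchymal type did not separate the parents as sharply: 7 to 9 were listed per table, led in each by hsa-miR-100-5p. They summed to 202888 to 273103 ppm in HCT116 and 304368 to 425245 in RPE1. Nearly all of this was hsa-miR-100-5p (223644 of 231189 in HCT116 5/4). Within the list, directions differed. hsa-miR-10b-5p stood at 2352 to 3718 ppm in HCT116 and 41.7 to 180 in RPE1, and hsa-miR-199b-5p was listed in HCT116 only. hsa-miR-99a-5p stood at 266 to 861 ppm in HCT116 and 1050 to 2463 in RPE1. Of 5 haematopoietic miRNAs, hsa-miR-142-5p stood at 38.6 ppm in HCT116 5/4 and between 1.90 and 3.79 in the other HCT116 tables, hsa-miR-150-5p was at 0.679 or less, and none was listed in RPE1.

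The epithelial and gut miRNAs did not move together with the chromosome 12 arms in HCT116 5/4. Of the 4 that were tested there, 3 were called higher and 1 lower. hsa-miR-192-5p rose by 1.96 ± 0.16 and hsa-miR-194-5p by 1.22 ± 0.19 on the log2 scale (adjusted p of 1.90e-31 and 7.24e-10, DESeq2). The called fall was that of hsa-miR-205-5p, another repressor of ZEB1 and ZEB2 in epithelial cells, named here after its values were seen. It went from 12.5 ppm in HCT116 to 0.211 in HCT116 5/4, a log2 fold change of -5.23 ± 0.64 (adjusted p = 1.27e-14, DESeq2). Its mean was under the minimum in HCT116* 8/3 c7 (4.42 normalised counts, log2 fold change -0.93 ± 0.31) and in HCT116 18/3 c2 (9.75, log2 fold change 0.33 ± 0.35), and in HCT116* 3/3 c11 it was not listed. hsa-miR-142-5p of the haematopoietic list went from 15.0 ppm in HCT116 to 53.6 in HCT116 5/4, and hsa-miR-204-5p of pigment epithelium had a log2 fold change of 1.56 ± 0.51, also called. Of the 7 mesenchymal miRNAs tested in that line, hsa-miR-99a-5p (0.89 ± 0.17) and hsa-miR-10b-5p (0.74 ± 0.16) were called higher and hsa-miR-31-5p (-2.40 ± 0.16) lower. The shares of all tested miRNAs are the same here, 9.24% called lower and 27.7% called in either direction. The part of these other miRNAs in the fall of the chromosome 12 arms was not tested. In HCT116* 3/3 c11, none of the 3 epithelial and gut miRNAs tested was called, against 9.68% of all tested miRNAs.

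hsa-miR-200a-5p was the only member listed in 5 tables, and its levels were set beside those of the 210 other miRNAs listed in the same tables. The highest Pearson correlations of log2 level in ppm over these 5 tables were those of hsa-miR-193b-5p and hsa-miR-10b-5p (r = 1.000 each), hsa-miR-7-5p (0.999), and hsa-miR-378i and hsa-miR-576-5p (0.998 each). With 4 HCT116 tables and 1 RPE1 table, and with 3 tables sharing control libraries, such values describe mainly the step between the parents. The sizes of that step differed widely, as hsa-miR-10b-5p stood between 2352 and 3718 ppm in the HCT116 tables and at 41.7 in RPE1* 21/3, and hsa-miR-193b-5p between 3.46 and 3.81 and at 1.27.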

How the data were processed

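Small RNA libraries (TruSeq, HiSeq2500) were made from HCT116 and RPE1 cells and their aneuploid derivatives. Per the study's methods and processing notes, the authors trimmed reads with cutadapt, quantified miRNAs with mirdeep2 on hg19 and compared groups with DESeq2, with replicate as a term for RPE1* 21/3, HCT116 5/4 and RPE1 5/3 12/3. The deposited tables give, per miRNA, a mean normalised signal over 6 libraries, the log2 fold change with its SE in log2 units, the Wald score and p-values, raw and adjusted. These columns are the authors' own comparison and were used as deposited. The tables hold neither counts of single libraries nor their depth, so no count test or depth interval was possible. Whether fold changes were shrunken is not given in the sources used here. The SE of hsa-miR-200a-5p in RPE1* 21/3 was 0.703 times the one that counting alone gives, which a shrunken estimate can show. Group levels were worked out from the fold changes as listed. Shrinkage would draw the control and line levels of scarce miRNAs together.

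Computed here, in Python 3 with scipy, were levels in ppm, group levels (control = 2 × mean / (1 + fold), line = control × fold), differences of fold changes with 95% intervals, the calls under other settings, and matches to GENCODE 44 on GRCh37 and to RefSeq miRNA sequences. The members, lists and limits were chosen with earlier results of these data known. All 4 members were named in every table, the marker lists by counts with their 2 highest miRNAs, and the 5 miRNAs closest in level over the tables.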

Additional observations from a re-analysis of the deposited data

Results flagged for a closer look

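The log2 fold changes of HCT116 5/4 were set against those of the other HCT116-derived lines, and 7 of 12 differences passed a Wald test on the DESeq2 estimates, adjusted over the 12. The same test was not run on the other miRNAs, so no share over all of them stands beside this count. In HCT116 5/4 alone, 27.7% of the tested miRNAs were called. The test takes the normal distribution, and with a t distribution none of the 69 calls of HCT116 5/4 held. For hsa-miR-141-5p the differences were -2.17 against HCT116 18/3 c2 (adjusted p = 8.80e-22), -1.81 against HCT116* 8/3 c7 (adjusted p = 2.22e-16) and -1.29 against HCT116* 3/3 c11 (adjusted p = 6.22e-05). For hsa-miR-200c-5p they were -2.25 (adjusted p = 2.27e-10), -1.85 (adjusted p = 2.21e-07) and -1.08 (adjusted p = 0.00944) in the same order. For hsa-miR-200a-5p the difference was -0.48 against HCT116 18/3 c2 (adjusted p = 0.0120). The 3 lines share the HCT116* libraries, so the differences are not independent of each other. HCT116 5/4 differs from them in its control and in its gained chromosome, with 4 copies against 3. Its fit also held a replicate term, used by the study against sequencing batch effects, and theirs did not. What part each has in the differences cannot be told apart.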

How the results depend on the processing

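In HCT116 5/4, the number of members called went from 2 to 1 with a minimum mean of 100, since hsa-miR-200c-5p then drops out. The number went to 0 with a t distribution of 3 degrees of freedom, under which none of the 69 calls of that line remained (adjusted p = 0.0784 for hsa-miR-141-5p and 0.127 for hsa-miR-200c-5p, from the DESeq2 estimates). A replicate term of 3 levels leaves fewer degrees of freedom than that. Scaled to the summed level of each group, the number went to 4. That setting was chosen after the data were seen and takes the summed level as free of error. In HCT116* 3/3 c11, the single call went to 0 with the t distribution and with a test against 0.6. Under the t distribution, 1 of the 27 calls of that line and none of the 51 calls of HCT116 18/3 c2 remained. The losses under this setting are thus not particular to the members. In HCT116 18/3 c2, the count went from 0 to 3 without a fold limit. Scaling to the summed level reversed hsa-miR-200a-5p in HCT116 18/3 c2 (-0.01) and in HCT116* 3/3 c11 (-0.06). Over 16 pairs of member and line and 8 settings, 116 of 128 values kept their direction and their side of the threshold. Many of these could not have changed. All 16 means were above 10, and only hsa-miR-200c-5p in HCT116 5/4 (70.4) was under 100. The count is therefore no measure of how firm the results are. The ratio of the HCT116* tables to the HCT116 5/4 table went from 2.20 to 3.20 with means as deposited and 2.61 without the 10 most abundant miRNAs for hsa-miR-200a-5p, from 1.23 to 1.73 and 1.47 for hsa-miR-200b-5p, from 1.35 to 1.90 with means as deposited for hsa-miR-200c-5p, and from 1.90 to 2.68 and 2.28 for hsa-miR-141-5p. As percentiles, which give no ratio, hsa-miR-200a-5p stood between 91.6 and 95.8 in the HCT116 tables and at 0.733 in RPE1* 21/3. No paired analysis was possible because the tables hold no values of single libraries: the authors' fit of HCT116 5/4 already holds a replicate term, the other 3 HCT116 tables have none, and neither choice could be refitted. For the same reason no replicate was left out in turn.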
